A study of Caenorhabditis elegans with 12 samples.

Results

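Whole Caenorhabditis elegans exposed to silver nitrate were compared with unexposed control animals, gene by gene, on Affymetrix arrays. The comparison takes the 3 arrays titled as silver nitrate and the 3 titled as control, which are 6 of the 12 arrays in the series, and every probe set that is not an array control (22548). All animals were wild type, strain N2 (Bristol). First-stage larvae 12 h after bleaching were moved into control or silver solutions, and RNA was taken 48 h later from populations of 2000 to 3000 worms. The exposures were matched by effect, a 30% loss of reproduction in the silver nitrate group as with the particles, and the dose itself is not analysed here. The other 6 arrays came from worms in aged (sulfidized) or pristine silver particles, and they are used here to estimate the spread and to show where silver nitrate differs from the particles. The labels do not say whether replicates were separate cultures, so p-values measure only the spread between these arrays, which may be technical. Each array is 1 RNA pool of whole animals, so fewer cells of a type and less RNA per cell cannot be told apart.

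Silver nitrate releases silver ions, which bind thiol groups of proteins and can displace copper and zinc. The worm's outer surface is a cuticle of cross-linked collagens that the epidermis secretes anew at each larval molt, and each collagen gene is switched on in a short window of that cycle. The intestine takes up nutrients and metals, stores fat, and makes lysozymes, lectins and proteases that act on bacteria in the gut. Metallothioneins and the other metal response genes are the known worm response to cadmium and to zinc excess.

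Deposited signals were scaled to 1 median per array, set to at least 16 (4 on the log2 scale, called the floor here) and put on the log2 scale. Array medians as deposited lay between 119.7 and 135.5 signal units. Replicate arrays correlated at 0.974 to 0.981 across probe sets within the groups and at 0.968 to 0.98 between them, and probe sets are not independent. The 3′ minus 5′ log2 signal of the actin control, a measure of RNA integrity, was 1.53 to 2.01 in control and 1.16 to 1.71 with silver nitrate. For the catalase control it was 1.32 to 2 and 1.5 to 2.08, and for ubiquitin 3.83 to 4.29 and 3.71 to 4.03. Gapdh gave 0.2 to 0.28 and 0.15 to 0.31, and gly14 −2.16 to −0.93 and −1.53 to −1.02, so the groups overlapped on each.

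Silver nitrate changed 30 of 22548 probe sets (0.133%) at a limma adjusted p under 0.05, of which 10 were higher (0.0443%) and 20 lower (0.0887%). They stood for 28 named genes and 1 probe set shared by several genes. With each gene read by its brightest probe set, 9 of 17118 genes rose (0.0526%) and 16 fell (0.0935%). Read this way, the silver nitrate arrays lay wholly above control for 6.1% of genes and wholly below for 8.09%. The counts for gene lists below are to be read against these shares. With values as deposited, without the median scaling, the split was 20 higher and 21 lower. At an unadjusted p under 0.05 lay 2772 probe sets where 1127 would by chance. Leaving out 1 array gave 4 to 46 calls, the fewest without silver nitrate replicate 3, and a limma fit on the 6 arrays alone gave 0 (2366 at an unadjusted p under 0.05). The same model on the 11274 probe sets above the median brightness called 185 (1.64%), 75 higher (0.665%) and 110 lower (0.976%). That fit pools its spread over fewer probe sets at the floor (6.22 prior degrees of freedom against 0.939). Brightness is a mean over all 12 arrays, so a probe set low in 1 group can pass through the groups where it is high. The 185 stood for 64 genes that rose and 94 that fell, and 15 probe sets with several genes or none. In all 185 the silver nitrate and control arrays did not overlap, as was so for 6.05% of all probe sets on the higher and 8.03% on the lower side. Without control replicate 2 this fit called 39, and without silver nitrate replicate 2 it called 42. Of the 185, 31 remained called in each of the 12 fits that left out 1 array, and they stood for 26 genes. Those that rose were C23H5.8, acdh-1, hrg-11.2, edg-1, clc-19, K11H12.4, T08B1.1, cpg-2 and asp-7. Those that fell were col-158, grl-20, grl-23, ilys-3, col-37, col-84, nas-39, col-2, grl-25, C05A9.2, nhr-6, swt-1, nadk-2, C04E6.8, clec-52, zipt-15 and T17H7.7. Below, "called over all probe sets" and "called above median brightness" name these tests, and a probe set at the floor in 1 or more arrays of the lower group gets an "at least" fold.

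**Figure D1:**
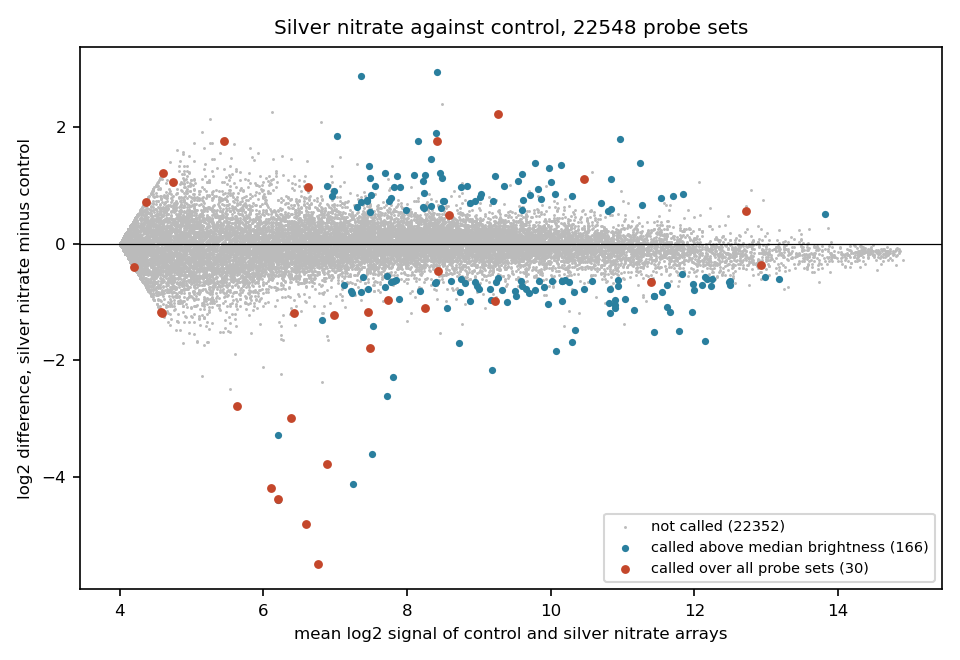
Each point is a probe set, plotted by its mean log2 signal over the 6 arrays (horizontal) and its log2 difference, silver nitrate minus control (vertical). Red points (30) were called over all probe sets, blue points (166) only above median brightness, and grey points (22352) in neither; the lowest points are probe sets of ground-like genes, grl-20 at −5.51 among them, and of some collagens, while the highest blue point is acdh-1 at 2.96.

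The largest falls among the called genes were in collagen genes and in ground-like genes, a family of secreted hedgehog-related proteins of the epidermis and cuticle. The signal of col-158, on chromosome V, was 7.71, 8.91 and 7.99 on the control arrays and 4 on each silver nitrate array. Every silver nitrate array was at the floor and every control array far above it, so that col-158 was at least 18.4-fold lower (log2 difference −4.2 ± 0.37 SE, adjusted p = 0.0104). The signal of grl-20, on chromosome IV, was 9, 10.46 and 9.06 in control and 4, 4 and 4 with silver nitrate, at least 45.4-fold lower (−5.51 ± 0.53 SE, adjusted p = 0.0155). Its second probe set read 8.39, 9.48 and 8.44 against 6.04, 4.45 and 4.49, so the groups did not overlap on either. For grl-23, on chromosome V, control read 8.24, 10.03 and 8.74 and silver nitrate 4.57, 4 and 4, at least 28.1-fold lower (−4.81 ± 0.49 SE, adjusted p = 0.0188).

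The collagens col-37, col-84 and col-114 followed the same course. The signal of col-37 was 7.78, 9.49 and 7.9 in control and 4 on all silver nitrate arrays, at least 21-fold lower (adjusted p = 0.0257). For col-84 it was 7.75, 8.1 and 7.8 against 4, 5.37 and 5.31, at least 7.93-fold lower (adjusted p = 0.0454), and for col-114 6.59, 7.69 and 6.78 against 4.57, 4 and 4.14, at least 6.9-fold lower (adjusted p = 0.0257). Control replicate 2 was the highest control array for each of these genes, and no control array came near the silver nitrate range. The collagen col-2 read 8.56, 10.77 and 8.6 against 4.68, 5.17 and 5.72, a 17.4-fold difference (adjusted p = 0.0558 over all probe sets, 0.000848 above median brightness). The ground-like gene grl-25 read 8.74, 10.3 and 8.91 against 6.6, 5.03 and 5.45 (−3.62, adjusted p = 0.00144 above median brightness), and its other probe set, at 8.02, 9.07 and 8.11 in control, was at the floor on all silver nitrate arrays. Above median brightness col-85 (−3.28), col-36 (−2.61), col-20 (−1.41), col-14 (−0.81) and col-159 (−0.6) fell as well, with adjusted p-values from 0.00906 for col-36 to 0.0417 for col-159.

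**Figure D2:**
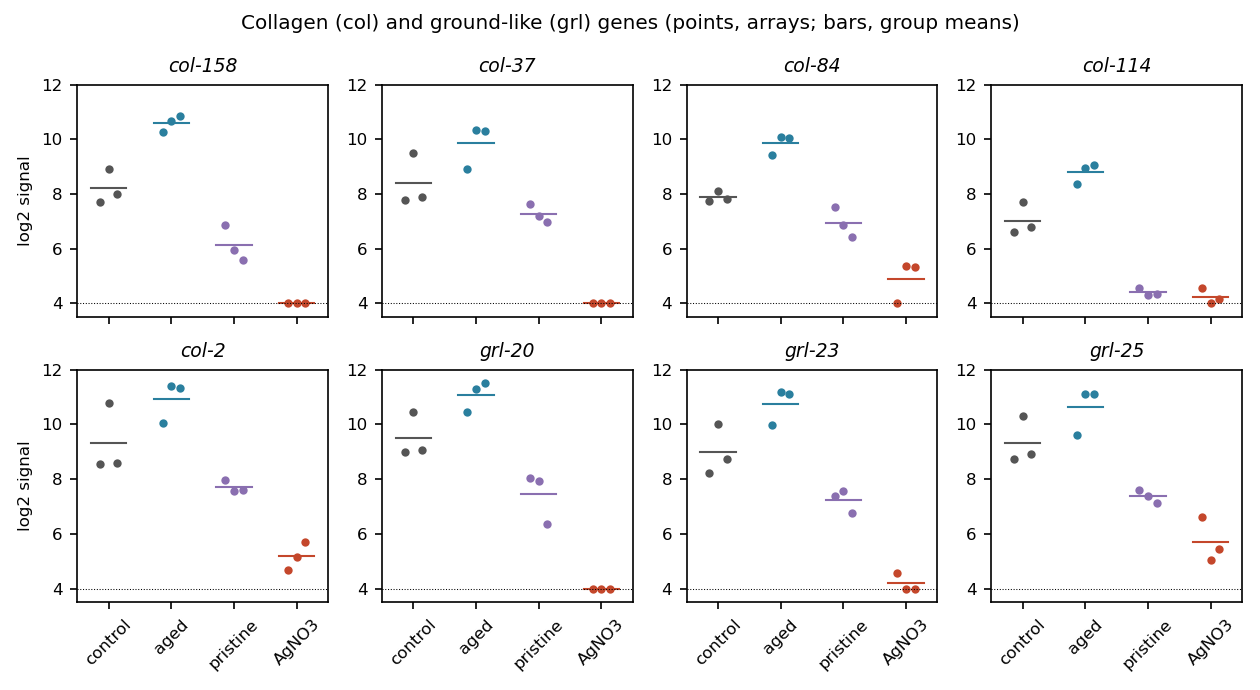
Log2 signal of 8 collagen and ground-like genes on all 12 arrays, with points for arrays, bars for group means and a dotted line at the floor of 4. In each panel the silver nitrate arrays (red) lie below the 3 control arrays (grey), and for col-158, col-37 and grl-20 all of them lie on the floor; the aged-particle arrays have the highest mean and the pristine-particle mean lies between control and silver nitrate.

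Some of these genes also separated silver nitrate from the particles, in comparisons that use the same silver nitrate arrays. The mean of col-158 was 10.59 with aged particles, 8.2 in control, 6.12 with pristine particles and 4 with silver nitrate. Silver nitrate lay 6.59 below aged particles (adjusted p = 0.000329 over all probe sets) and 2.12 below pristine particles (adjusted p = 0.18 over all probe sets, 0.0144 above median brightness). For grl-20 the means in that order were 11.09, 9.51, 7.45 and 4, and the difference from pristine particles was −3.45 (adjusted p = 0.161 and 0.0072). For col-37 the means were 9.86, 8.39, 7.28 and 4, and the difference from pristine particles was −3.28 (adjusted p = 0.161 and 0.0072). For these 3 genes the levels stood in 1 order, with silver nitrate lowest. Above median brightness grl-23, col-84, col-2 and col-20 were also lower than with pristine particles, with adjusted p-values from 0.00797 for grl-23 to 0.034 for col-2. Those of grl-25 (adjusted p = 0.121 and 0.168 on its probe sets), col-85 (0.168), col-36 (0.275), col-14 (0.749) and col-159 (0.0638) missed the threshold. In col-114, below that brightness, the mean of 4.24 with silver nitrate differed by −0.17 from 4.41 with pristine particles (adjusted p = 0.944). Over all probe sets 57 differed between silver nitrate and aged particles (0.253%), 47 of them lower (0.208%), and 1 between silver nitrate and pristine particles (0.00443%). Above median brightness 182 differed from aged particles (1.61%), 35 higher (0.31%) and 147 lower (1.3%), and 80 from pristine particles (0.71%), 33 higher (0.293%) and 47 lower (0.417%).

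Across the whole class, 28 of 128 col genes had silver nitrate arrays that all lay below the control arrays (21.9%) and 3 lay wholly above (2.34%). Over all 17118 genes, each read by its brightest probe set, the shares were 8.09% and 6.1%. The median difference of the col genes was −0.22 against −0.01 for all genes. Over all probe sets 4 of them fell. Above median brightness 9 of 56 fell and none rose, where 0.904% of genes fell and 0.638% rose. The adult cuticle collagen col-19 had a value of −1.74 (adjusted p = 0.105). The 18 collagens with body-shape phenotypes, among them bli-2 (−0.7, adjusted p = 0.268) and rol-8 (−0.82, adjusted p = 0.473), had none called and a median of −0.03, which turned to 0.04 with values as deposited and 0.03 after quantile normalisation. Their mean level moved widely between silver nitrate arrays, at 0.86 relative to the control mean on replicate 2, −0.12 on replicate 1 and −0.75 on replicate 3.

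Of 54 ground-like, groundhog and warthog genes, 8 lay wholly below control (14.8%), with grl-17 at −2.49 (adjusted p = 0.104), grd-7 at −1.54 (adjusted p = 0.059) and grl-19 at −1.4 (adjusted p = 0.115) next to the called pair. Among 26 patched-related genes, membrane proteins akin to the hedgehog receptor, 7 lay wholly below control (26.9%) and none above. None of the 26 was called, and the lowest p-values above median brightness were those of ptc-3 (−0.61, adjusted p = 0.0575) and ptr-6 (−0.95, adjusted p = 0.0611). The astacin protease nas-39, of the tolloid type, fell 2.33-fold from 7.54, 7.59 and 7.62 to 6.13, 6.45 and 6.53 (−1.22 ± 0.14 SE, adjusted p = 0.0257). Each control array lay over 1 log2 unit above each silver nitrate array for nas-39, and silver nitrate also lay below pristine particles (−0.98, adjusted p = 0.0144 above median brightness). The other 32 astacins gave no call. The 32 molting-cycle genes gave no call and had a median of 0.02. The 21 epidermis markers gave none either, with a median of 0.1, 0 genes wholly above control and 1 wholly below. The mean epidermis marker level, as log2 difference from the control mean, was −0.11 to 0.07 on control arrays and −0.19 to 0.29 on silver nitrate arrays. The part of molt stage or epidermal cell number in the collagen values was not tested.

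Genes of defence against bacteria split in both directions. The invertebrate-type lysozyme ilys-3, an enzyme that digests bacterial walls, read 8.41, 8.32 and 8.42 in control and 6.36, 6.56 and 6.86 with silver nitrate. All 3 silver nitrate arrays lay well below the tight control range, a 3.46-fold fall (−1.79 ± 0.16 SE, adjusted p = 0.0104). The mean was 8.17 with aged particles and 7.03 with pristine particles, and silver nitrate differed from them by −1.57 (adjusted p = 0.00701) and −0.44 (adjusted p = 0.425). The protist-type lysozyme lys-2 went the other way, from 9.17, 9.55 and 9.66 to 10.63, 11.59 and 10.21, a difference of 1.35 (adjusted p = 0.123 over all probe sets, 0.0191 above median brightness). Silver nitrate replicate 2 was highest, and the groups did not overlap. Of 16 lysozymes 4 lay wholly above control (25%) and 3 wholly below (18.8%), against 6.1% and 8.09% of all genes. The gene lys-6 had a value of 0.79 (adjusted p = 0.124), ilys-5 of 0.67 (adjusted p = 0.0749 above median brightness) and lys-1 of 0.9 (adjusted p = 0.0678 above median brightness).

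C-type lectins are secreted or membrane proteins with a sugar-binding fold. Of 220 measured, 24 lay wholly above control (10.9%) and 10 wholly below (4.55%), against 6.1% and 8.09% of all genes. Above median brightness 3 of 48 rose, clec-50 (0.66, adjusted p = 0.0465), clec-67 (0.98, adjusted p = 0.0349) and clec-258 (0.99, adjusted p = 0.0417). In the opposite direction clec-52 fell from 10.21, 9.61 and 8.9 to 7.8, 7.71 and 8.08 (−1.71, adjusted p = 0.00428), with no overlap although its control arrays spanned over 1 unit. The galectin lec-10 rose from 11.17, 11.24 and 11.46 to 12.09, 12.09 and 12.15 (0.82, adjusted p = 0.0107). It also differed from aged particles (0.71, adjusted p = 0.0229 above median brightness) and pristine particles (0.83, adjusted p = 0.0207). Of 21 intestinal immune genes 5 lay wholly above control and 5 wholly below (23.8% each). The flavin monooxygenase fmo-2 fell (−1.1, adjusted p = 0.0397 above median brightness), and clec-4 had a value of 2.09 (adjusted p = 0.145). None of 18 epidermal antimicrobial peptide genes was separated in either direction.

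Some enzymes and transporters of sugar, amino acid and fat metabolism fell above median brightness, while others, such as acdh-1, tkt-1 and gpdh-2, rose and are given further on. These genes were picked after their values were seen, for having several called probe sets or encoding a well-known enzyme, and stand for no fixed list. The sugar transporter swt-1, of the SWEET family, read 10.37, 10.38 and 10.02 in control and 8.1, 7.39 and 8.8 with silver nitrate (−2.16, adjusted p = 0.0027). All silver nitrate arrays lay more than 1 unit below control, and swt-1 was also below pristine particles, whose mean was 9.84 (adjusted p = 0.0213). The mitochondrial NAD kinase nadk-2, which makes NADP, was called on 3 probe sets, the strongest reading 11.88, 11.95 and 11.39 against 10.48, 10.47 and 10.83 (−1.14, adjusted p = 0.004). The other probe sets of nadk-2 gave −1.17 and −1.09. The methionine-cycle enzyme sams-1, which makes S-adenosylmethionine, also fell on 3 probe sets, the brightest from 13.03, 12.83 and 12.68 to 12.02, 11.98 and 12.42 (−0.71, adjusted p = 0.0377), the others by 0.82 and 0.71 on the log2 scale.

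The lysine-degrading enzyme aass-1 fell from 11.32 ± 0.2 (SD, n = 3) to 10.35, 10.2 and 10.36 (−1.02, adjusted p = 0.00833). Some genes of fat breakdown and synthesis, also picked after their values were seen, fell by less. The triglyceride lipase atgl-1 fell by 0.78 (adjusted p = 0.0191), the lipase-like lips-10 by 0.78 (adjusted p = 0.0161) and 0.64 (adjusted p = 0.048) on its probe sets, the phospholipase-like ipla-6 by 0.97 (adjusted p = 0.0154), and the lipin lpin-1, a phosphatidate phosphatase, by 0.7 (adjusted p = 0.0329), all on the log2 scale. The related lips-15 went the other way and rose by 0.79 (adjusted p = 0.0339 above median brightness). Among 16 lips genes, each read by its brightest probe set, 1 was called higher and 1 lower in that test, with a median of 0. The trehalase tre-5 fell by 1.1 (adjusted p = 0.0154), and the dicarboxylate transporter nac-3 fell by 0.83 (adjusted p = 0.035). In the list of 33 fatty acid and lipid-binding genes 4 lay wholly above control and 4 wholly below, with a median of −0.05 (0.01 with values as deposited), so the direction was not shared across lipid genes. The delta-9 desaturase fat-5 had a value of 1.44 (adjusted p = 0.101), and fat-4 one of −0.4 (adjusted p = 0.163).

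Several nuclear hormone receptors, ligand-gated transcription factors, fell too. Above median brightness nhr-17 fell from 11.42, 11.03 and 10.53 to 8.91, 8.8 and 9.76 (−1.84, adjusted p = 0.0107). Its groups did not overlap, and silver nitrate replicate 3 was the nearest to control. The receptor nhr-19 fell by 1.05 (adjusted p = 0.0107), nhr-21 by 1.19 (adjusted p = 0.0455) and nhr-88 by 1 (adjusted p = 0.0107) on the log2 scale. The worm NR4A orthologue nhr-6 read 8.5, 8.9 and 9.01 against 7.69, 7.52 and 7.87 (−1.11, adjusted p = 0.0453 over all probe sets), and its brightest probe set had a value of −0.88 (adjusted p = 0.241). Of 254 receptors measured, 27 lay wholly below control (10.6%) and 9 wholly above (3.54%), so most of the family was not separated. For all genes the shares were 8.09% and 6.1%. The family median was −0.02, with 135 receptors lying lower and 119 higher. Read by their brightest probe sets, 3 of 131 receptors above median brightness were called lower (0.904% of all such genes were).

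**Figure D3:**
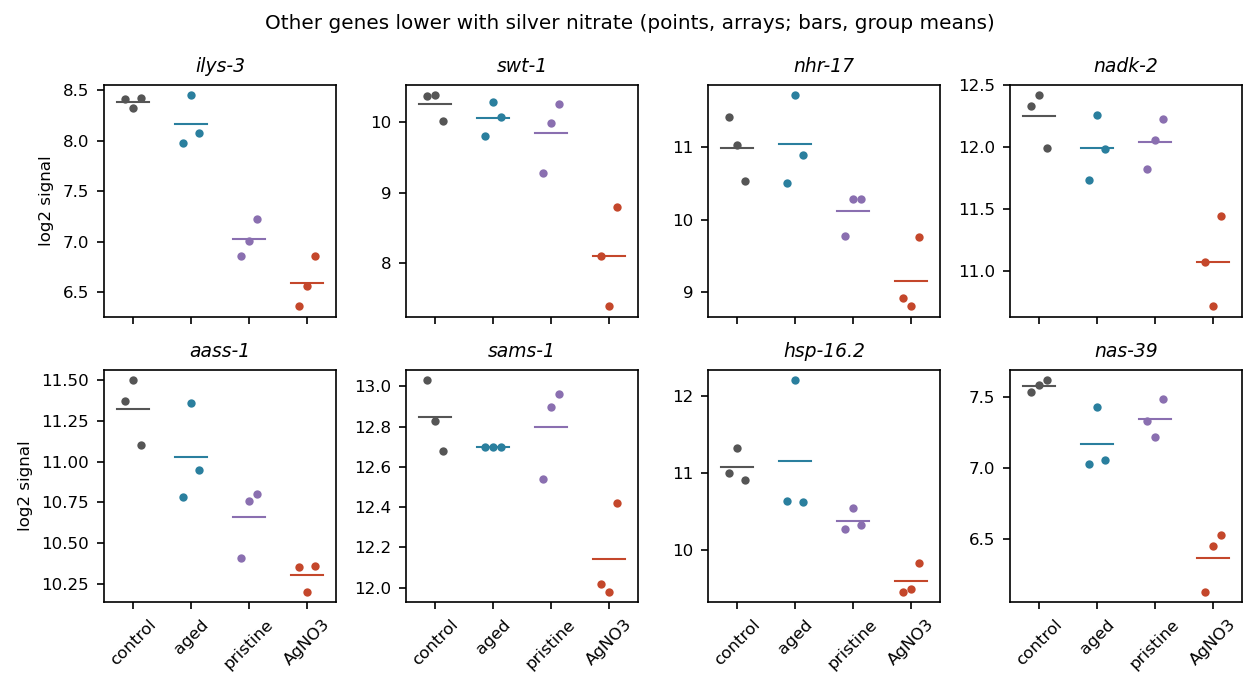
Log2 signal of 8 genes lower with silver nitrate, on all 12 arrays, each read by its brightest probe set; points are arrays, bars are group means, and each vertical axis has its own range. For ilys-3 the pristine-particle mean (7.03) lies near that of silver nitrate, whereas for swt-1, nadk-2 and nas-39 the silver nitrate arrays lie below those of the other 3 groups.

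The largest rise among the called genes was in acdh-1, the acyl-CoA dehydrogenase of the propionate shunt, a vitamin B12-independent route for propionate breakdown. Its signal was 6.1, 7.62 and 7.09 in control and 9.91, 9.91 and 9.88 with silver nitrate, 7.78-fold higher (2.96 ± 0.44 SE, adjusted p = 0.0558 over all probe sets, 0.000921 above median brightness). The silver nitrate arrays agreed to within 0.03 units while control spread over more than 1, and no arrays overlapped. Means with aged and pristine particles were 7.91 and 8.48, and silver nitrate lay 1.98 above the former (adjusted p = 0.0153 above median brightness) and 1.42 above the latter (adjusted p = 0.0887). The other shunt genes were not called. Values were 0.13 for hphd-1 (adjusted p = 0.786), −0.22 for alh-8 (adjusted p = 0.559) and 0.21 for hach-1 (adjusted p = 0.526). None of the 4 genes of the B12-dependent route was called, with a median of −0.32. All 4 lay lower, 2 of them wholly below control. A list of 11 methionine-cycle and methyl-use genes was drawn up after sams-1 and acdh-1 were seen. Of these 9 lay lower and 2 higher, with 3 wholly below control and 0 above. Only sams-1 was called, above median brightness (adjusted p = 0.0377, and 0.112 over all probe sets).

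The gene C23H5.8 rose on both of its probe sets, from 7.57, 8.24 and 8.62 to 10.2, 10.78 and 10.18 on the brighter (2.24 ± 0.28 SE, 4.73-fold, adjusted p = 0.0374). Its silver nitrate arrays lay over 1 unit above all control arrays, and above pristine particles as well (1.64, adjusted p = 0.0144 above median brightness). Of the hrg class, named for responding to heme, hrg-11.2 rose from 7.39, 7.26 and 7.97 to 9.39, 9.66 and 8.85 (1.76 ± 0.24 SE, 3.39-fold, adjusted p = 0.0477). The related hrg-11.3, picked after its value was seen, rose from 9.26, 8.96 and 9.74 to 10.69, 10.97 and 10.21 (1.3, adjusted p = 0.0125 above median brightness). Both therefore rose with no overlap, while hrg-1, a heme transporter, lay wholly below control (−0.63, adjusted p = 0.288). K11H12.4 rose 2.16-fold from 9.66, 10.07 and 9.97 to 11.05, 10.92 and 11.06 (1.11 ± 0.15 SE, adjusted p = 0.0477).

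Genes next in order of p rose above median brightness. The claudin-like clc-19 read 7.73, 7.92 and 7.89 in control and 9, 9.34 and 8.83 with silver nitrate (1.21, adjusted p = 0.0027), and it differed from aged (adjusted p = 0.0399) and pristine particles (adjusted p = 0.0165). The gene edg-1 rose from 7.14, 6.45 and 6.82 to 8.17, 8.17 and 8.07 (1.33, adjusted p = 0.00259), but its mean with pristine particles was 7.98 and silver nitrate differed from that by 0.16 (adjusted p = 0.81). The carbonic anhydrase cah-5 (0.65, adjusted p = 0.0198), the glycerol-3-phosphate dehydrogenase gpdh-2 (0.58, adjusted p = 0.0302) and the aquaporin aqp-3 (0.74, adjusted p = 0.0165) rose by smaller amounts. Transketolase, tkt-1, of the pentose phosphate pathway and picked after its value was seen, rose by 0.56 (adjusted p = 0.043).

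Genes of the gut lumen and its brush border were among those that rose. The microvillar actin act-5 read 9.77, 8.89 and 9.73 in control and 10.25, 11.12 and 10.24 with silver nitrate (1.07, adjusted p = 0.162 over all probe sets, 0.0424 above median brightness, called in 4 of the 12 fits that left out 1 array). The intermediate filament gene ifc-1, picked after its value was seen, rose from 10.22, 10.17 and 10.47 to 11.44, 11.67 and 11.08 (1.11, adjusted p = 0.0177 above median brightness). The aspartyl protease asp-7 rose from 7.74, 7.24 and 6.84 to 8.61, 8.43 and 8.29 (1.17, adjusted p = 0.00707 above median brightness). No arrays overlapped for these 3 genes, and silver nitrate replicate 2 was the highest for act-5 and ifc-1. The proteases asp-8 (1.13, adjusted p = 0.0285) and asp-13 (0.77, adjusted p = 0.048) rose as well. Of 26 cathepsin and aspartyl proteases 4 lay wholly above control (15.4%) and 2 wholly below (7.69%), against 6.1% and 8.09% of all genes. Their median was −0.11 (0.01 after quantile normalisation).

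Of 23 intestine markers, a list that holds act-5, 8 lay wholly above control (34.8%) and none below, 17 had a difference above 0 and 6 below it, and the median was 0.24. Of the 20 above median brightness act-5 alone rose. The other separated markers included the esterase ges-1 (0.49, adjusted p = 0.154), the membrane linker erm-1 (0.49, adjusted p = 0.168), the proton pump subunit vha-6 (0.62, adjusted p = 0.244), the lipid-binding lbp-6 (0.77, adjusted p = 0.199) and the gut transcription factor elt-2 (0.21, adjusted p = 0.255). The mean marker level, as log2 difference from the control mean, was −0.05, 0 and 0.05 on control arrays and 0.28, 0.38 and 0.11 on silver nitrate arrays. It was −0.01 to 0.19 with aged and −0.01 to 0.09 with pristine particles. The part of intestinal tissue share in the values of gut genes was not tested.

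**Figure D4:**
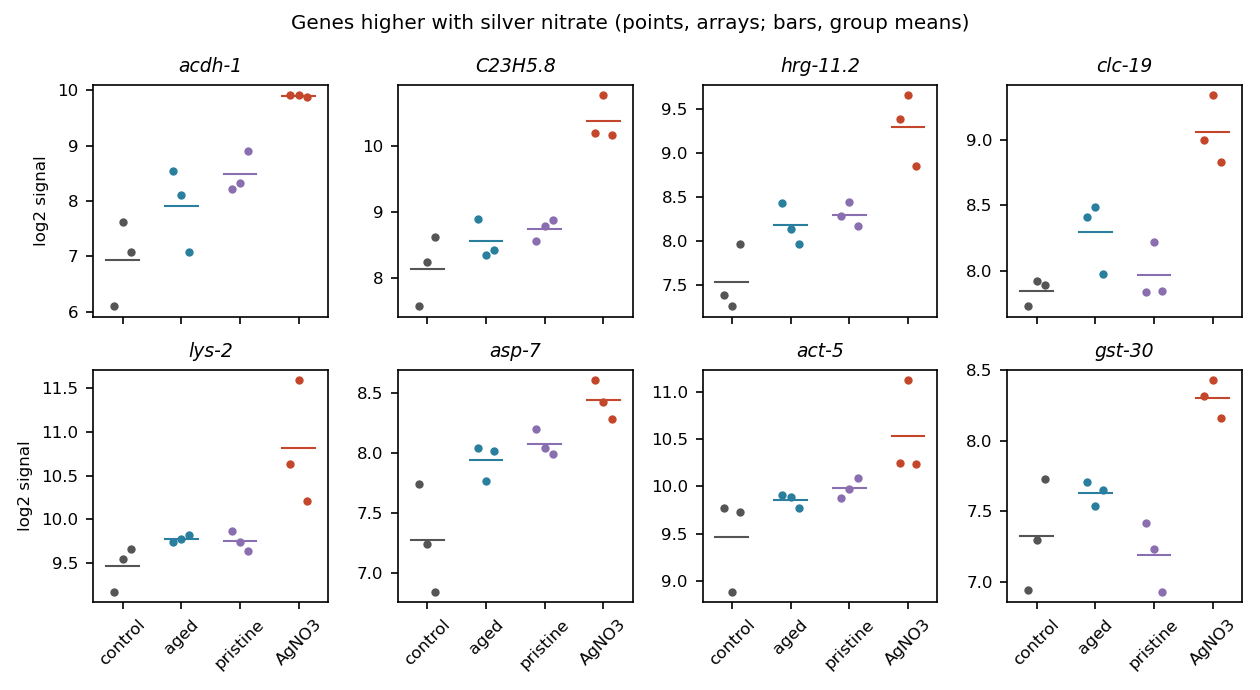
Log2 signal of 8 genes higher with silver nitrate, on all 12 arrays, with points for arrays, bars for group means and a vertical axis of its own in each panel. All 3 silver nitrate arrays lie above all 3 control arrays in every panel; those of acdh-1 are nearly identical, and those of lys-2 and act-5 are spread by replicate 2.

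Glutathione S-transferases join glutathione to reactive compounds, and 11 of 40 lay wholly above control (27.5%) with none below. The gene gst-20 had a mean of 12.44 ± 0.12 (SD, n = 3) in control and read 13.05, 13.1 and 12.89 with silver nitrate (0.57 ± 0.08 SE, 1.49-fold, adjusted p = 0.0477). Above median brightness gst-30 rose from 6.94, 7.3 and 7.73 to 8.32, 8.43 and 8.16 (0.98, adjusted p = 0.0177) and gst-12 from 7.43, 8.05 and 7.89 to 8.36, 8.79 and 8.86 (0.88, adjusted p = 0.0291). For gst-30 silver nitrate also lay above pristine particles (mean 7.19, adjusted p = 0.0203). The UDP-glucuronosyltransferases, which attach sugar to lipophilic compounds, went both ways. Over all probe sets ugt-7 fell from 7.11, 7.15 and 6.81 to 6.15, 5.51 and 5.85 (−1.19, adjusted p = 0.0477), with means of 6.04 and 5.99 for aged and pristine particles. Above median brightness ugt-9 rose by 0.64 (adjusted p = 0.0495), and ugt-6 had a value of 0.5 (adjusted p = 0.0541). Cytochrome P450 genes, the first step of detoxification, gave no call among 73, with 5 wholly above and 7 wholly below control, and a median of 0. Of 49 ABC transporters 9 lay wholly above control (18.4%) and 1 below, none called, with mrp-7 at 1.82 (adjusted p = 0.273) and pgp-14 at 0.61 (adjusted p = 0.147).

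No metal response gene was called. Metallothioneins bind metal ions through cysteines, and mtl-1 read 12.65, 12.7 and 12.38 in control and 12.44, 12.25 and 12.12 with silver nitrate (−0.31 ± 0.1 SE, adjusted p = 0.25). The other, mtl-2, read 13.23, 13.48 and 13.38 against 13.44, 13.09 and 13.2 (−0.12, adjusted p = 0.799). The groups overlapped for both. The cadmium-responsive genes cdr-1 (0.22, adjusted p = 0.661), cdr-2 (0.55, adjusted p = 0.579), cdr-3 (−0.51, adjusted p = 0.413), cdr-4 (0.25, adjusted p = 0.501) and cdr-6 (0.11, adjusted p = 0.78) overlapped too. So did numr-2 (−0.65, adjusted p = 0.679), the phytochelatin synthase pcs-1 (−0.06, adjusted p = 0.877) and the transporters hmt-1 (−0.12, adjusted p = 0.836) and mrp-1 (0.01). Of the 12 measured genes, hizr-1 alone, the zinc-sensing nuclear receptor, lay wholly above control, at 7.6, 7.58 and 7.59 against 7.06, 7.45 and 7.06 (0.4, adjusted p = 0.218). The list median was −0.03, 0.05 with values as deposited and 0.03 after quantile normalisation.

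Among 20 zinc and copper handling genes, zipt-15, of the ZIP family that imports zinc, fell from 9.31, 9.38 and 9.44 to 8.59, 8.31 and 8.26 (−0.99, adjusted p = 0.0558 over all probe sets, 0.00542 above median brightness). Aged particles had a mean of 8.6 and silver nitrate differed from it by −0.21 (adjusted p = 0.672). The copper ATPase cua-1 (−0.34, adjusted p = 0.601) and the zinc transporters cdf-2 (0.17, adjusted p = 0.597) and ttm-1 (0.15, adjusted p = 0.84) overlapped with control. The iron store ftn-1 had a value of −0.26 (adjusted p = 0.488) and ftn-2 of −0.03 (adjusted p = 0.967). Superoxide and peroxide genes gave no call in 9, with ctl-2, a catalase, at 0.58 (adjusted p = 0.294), nor did 22 glutathione and thioredoxin genes, with gpx-7 at 0.85 (adjusted p = 0.0587 above median brightness).

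Of the small heat shock genes, chaperones that rise when proteins unfold, the hsp-16 pair fell. The gene hsp-16.2 read 11, 11.32 and 10.91 in control and 9.46, 9.5 and 9.83 with silver nitrate (−1.48, adjusted p = 0.154 over all probe sets, 0.0339 above median brightness). The linked hsp-16.41 had a control mean of 11.14 ± 0.4 (SD, n = 3) and read 9.4, 9.23 and 9.76 with silver nitrate (−1.68, adjusted p = 0.157 and 0.0342). Whether probes are shared between hsp-16 genes was not tested. The silver nitrate arrays lay well below every control array on both. Of 15 heat shock genes 4 lay wholly below control (26.7%, against 8.09% of all genes) and none above. Of 11 hypoxia and sulfide genes 3 lay wholly below control (27.3%), and none was called. The gene rhy-1, a target and regulator of the hypoxia factor, read −0.91 (adjusted p = 0.0502 above median brightness). The sulfide quinone reductase sqrd-1 read −0.67 (adjusted p = 0.159 in the same test). Endoplasmic reticulum (20 genes) and mitochondrial stress (12 genes) lists gave no call, with medians of 0.14 and −0.01.

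One germline RNA regulator and 1 DNA replication gene rose. Over all probe sets ife-5, a germline cap-binding protein for translation, rose from 4.98, 4.31 and 4.43 to 5.98, 6.34 and 6.68 (1.76 ± 0.23 SE, 3.39-fold, adjusted p = 0.0418). Its means with aged (6.07) and pristine particles (5.97) lay close to that of silver nitrate (6.33), with differences of 0.27 and 0.36 (adjusted p = 0.747 and 0.7). The primase subunit pri-1, which starts DNA strands, rose from 6.01, 6.16 and 6.24 to 7.25, 7.23 and 6.85 (0.97 ± 0.12 SE, 1.96-fold, adjusted p = 0.0418). No arrays overlapped for either gene. Each remained called in 2 of the 12 fits that left out 1 array, and neither with the replicate block (adjusted p = 0.0777 for both). Control arrays of ife-5 lay near the floor. The eggshell proteoglycan cpg-2 rose above median brightness from 7.75, 7.17 and 7.34 to 8.47, 8.28 and 8.43 (0.97, adjusted p = 0.00637), and the P-granule gene mip-1, picked after its value was seen, rose by 0.82 (adjusted p = 0.0237). Of 33 germline RNA regulators 10 lay wholly above control (30.3%) and 1 below, with a median of 0.37, and of 32 replication genes 10 lay above (31.2%) and none below, with a median of 0.24. Other germline lists held fewer separated genes. Of 25 oocyte and eggshell genes 3 lay wholly above control (12%) and none below (median 0.32). Of 25 meiotic chromosome genes 3 lay above (12%) and 1 below (4%, median 0.09), against 6.1% and 8.09% of all genes. Of 23 major sperm protein genes none lay wholly above and 1 below, with a median of −0.18. The mean level of the germline RNA regulators was −0.14 to 0.24 on control arrays, highest on replicate 1, and 0.35 to 0.46 with silver nitrate. It was 0.3 to 0.38 with pristine and −0.02 to 0.26 with aged particles. Replication genes spanned −0.12 to 0.14 in control and 0.17 to 0.32 with silver nitrate. They spanned 0.18 to 0.3 with pristine and 0.1 to 0.25 with aged particles. Pristine particles stood near silver nitrate in both lists, and the aged-particle range also overlapped that of silver nitrate for replication genes. Among 28 DNA damage genes 8 lay wholly above control (28.6%) and 1 below, none called, with rad-50 at 0.5 (adjusted p = 0.0725 above median brightness) and rad-51 at 0.39 (adjusted p = 0.168). The part of germline size in these values was not tested. Yolk genes, made by the adult intestine, gave no call in 6, with vit-4 at −1.21 (adjusted p = 0.145).

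Neuropeptide genes, the signalling peptides of neurons, stood lower by small amounts. Of 106 neuropeptide genes 29 lay wholly below control (27.4%) and 1 above, with a median of −0.2. Above median brightness the insulin-like ins-4 fell from 9.34, 9.69 and 9.68 to 9, 8.79 and 8.94 (−0.66, adjusted p = 0.0226), and the FMRFamide-like flp-18 from 12.61, 12.84 and 12.97 to 12.09, 12.33 and 12.13 (−0.63, adjusted p = 0.0417). Of 30 other neuron markers 5 lay wholly below control and 1 above, none called, with a median of −0.12. Their mean level was −0.09 to 0.08 in control and −0.18 to −0.08 with silver nitrate, so the ranges met. Body wall muscle markers (24 genes) gave no call, with 6 wholly below control and 1 above; the median was 0.08, opposite in sign to most of the separated genes, such as unc-54 (−0.32, adjusted p = 0.39). Cytosolic ribosomal protein genes (75) gave no call, and their median of −0.14 turned to 0.03 after quantile normalisation.

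**Figure D5:**
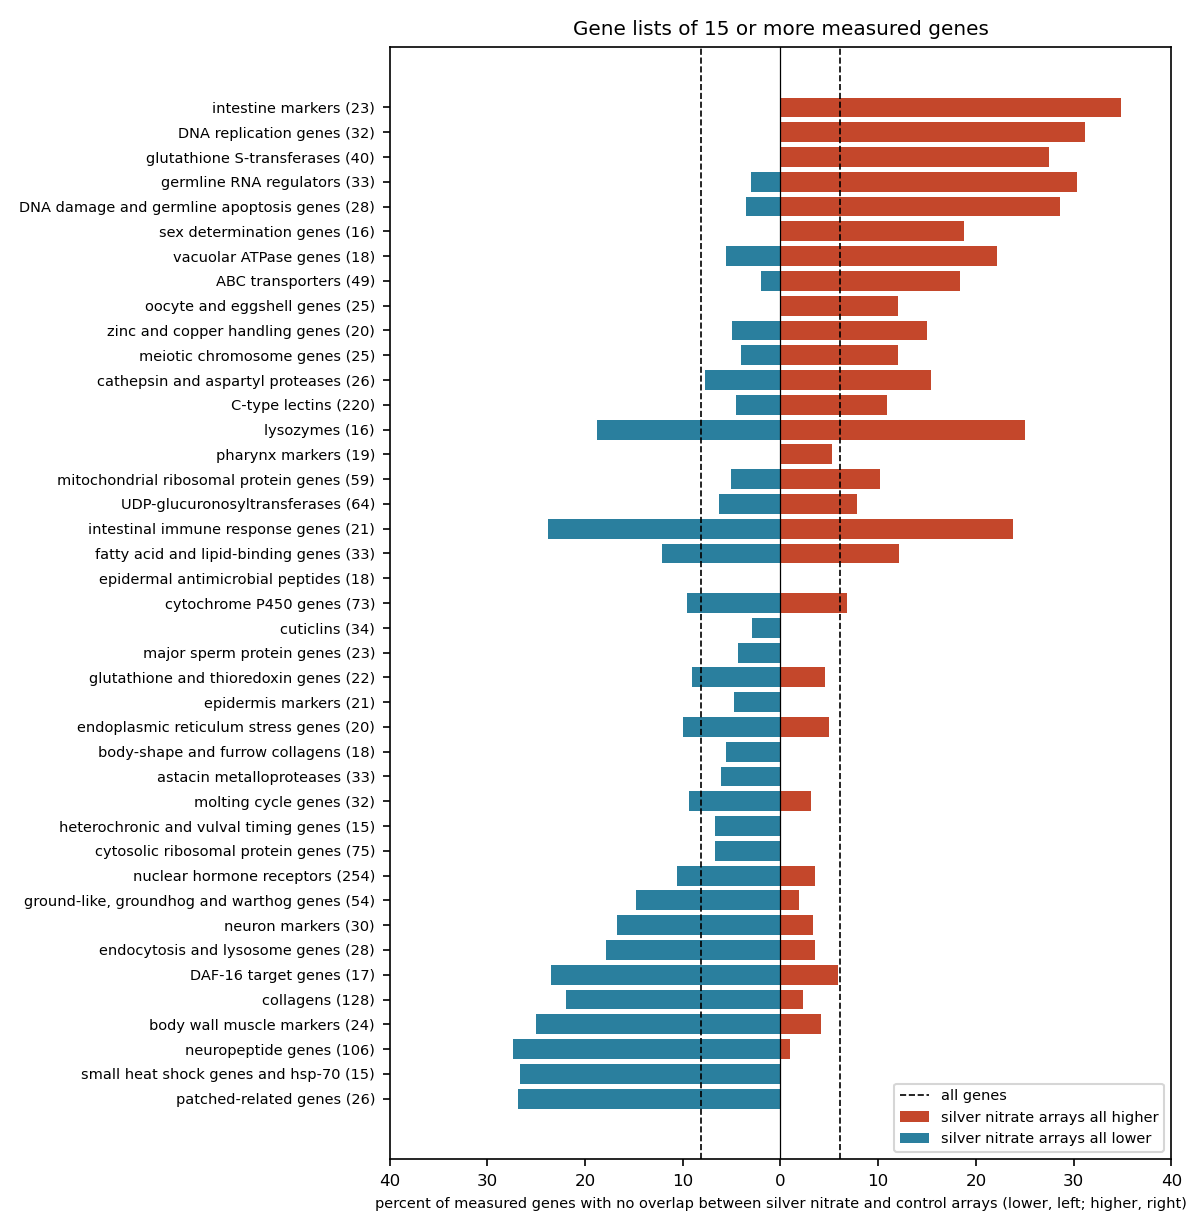
For each of 41 gene lists with at least 15 measured genes (number in brackets), the bars give the percent of genes whose 3 silver nitrate arrays all lay above (red, right) or all below (blue, left) the 3 control arrays, with dashed lines for all genes (6.1% and 8.09%). Intestine markers (34.8%) reach furthest to the right and neuropeptide genes (27.4%) furthest to the left, and the epidermal antimicrobial peptides have no bar.

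The remaining calls over all probe sets were smaller or near the floor. The β-catenin of Wnt signalling, bar-1, rose from 8.43, 8.27 and 8.32 to 8.9, 8.87 and 8.74 (0.5 ± 0.07 SE, adjusted p = 0.0453). The BTB and MATH domain gene bath-38 fell from 11.68, 11.83 and 11.68 to 11.11, 10.95 and 11.19 (−0.65, adjusted p = 0.0328). Genes known by sequence name that fell were C05A9.2 (−0.98, adjusted p = 0.0257), C04E6.8 (−0.97, adjusted p = 0.0454), C50F4.6 (−0.47, adjusted p = 0.0454) and T20D3.6 (−0.37, adjusted p = 0.0477), each without overlap. Calls at low signal rest on arrays at or near the floor. One of 3 lem-4 probe sets, for a nuclear envelope protein, read 5.12, 5.07 and 5.31 in control and 4 on all silver nitrate arrays, at least 2.25-fold lower (adjusted p = 0.00122), but it was also at or near the floor with both particles (means 4.09 and 4) and the brightest lem-4 probe set overlapped. The receptor nhr-89 (at least 2.27-fold) and Y69A2AR.24 (at least 1.31-fold) fell to the floor too (adjusted p = 0.0477 for both). From a control group at the floor, idpp-13 rose to 5.17, 5.04 and 5.42 (at least 2.31-fold, adjusted p = 0.0267) and the male-development factor mab-3 to 4.6, 4.75 and 4.8 (at least 1.64-fold, adjusted p = 0.0453). For pqn-41, 1 dim probe set of 4 rose from 4.22, 4.43 and 4 to 5.46, 5.23 and 5.14 (adjusted p = 0.0257), which was also the 1 probe set called between silver nitrate and pristine particles (adjusted p = 0.043); its brightest probe set overlapped.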

How the data were processed

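Each of the 12 arrays was deposited as 1 column of linear intensity values for 22625 probe sets, and the summarisation method is not given in the sources used here. Per the labels' protocols, 100 ng of Trizol-extracted total RNA was labelled with the Affymetrix IVT Express kit. After removal of 77 array controls, signals were multiplied so that every array had a median of 129. Values under 16 were raised to 16 before log2. Between 13.7% and 15.8% of probe sets lay at this floor per array. A limma model (limma 3.58.1, R 4.3.3) with 1 mean per group was fitted on all 12 arrays, with 8 residual degrees of freedom and Benjamini-Hochberg adjustment over 22548 probe sets. All adjusted p-values are from limma, and those above median brightness (log2 6.99) are adjusted over 11274. Brightness is the mean log2 signal over all 12 arrays, so a probe set can pass through the groups where it is high.

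Probe sets were named through the platform annotation and a gene table of the WBcel235 assembly. One gene each was named for 20766 probe sets, standing for 17118 genes, several for 887 and none for 895. In lists, the brightest probe set stood for a gene (2981 genes had several). The members and lists were chosen with earlier results of these data known. Named were all probe sets with 1 gene called over all probe sets, most of the next 10 by p in each direction, and all metal response genes. In other lists the named members are a selection, mostly from the smallest p-values and the separated genes. They do not stand for every separated member. Genes from outside these sets and lists are stated as picked after their values were seen. The model was tested on simulated data. Same-numbered arrays did not deviate together (correlations −0.09, 0.08 and −0.07), so replicate numbers were not taken as pairs. The number of arrays limits the precision.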

Additional observations from a re-analysis of the deposited data

How the results depend on the processing

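Calls over all probe sets depended on the treatment of dim signals and on the arrays in the fit. Against 30 calls for silver nitrate against control, 57 against aged and 1 against pristine particles, in that order, quantile normalisation gave 69, 82 and 0, a floor of 1 gave 9, 43 and 3, and a floor of 64 gave 3, 46 and 0. Probe sets above median brightness gave 185, 182 and 80, leaving out the dimmest 25% gave 53, 80 and 0, and a variance with trend and robust fit gave 85, 118 and 0. With the replicate block the counts were 10, 37 and 0 (6 of the 30 remained), and with the 2 compared groups alone 0, 13 and 1. Values as deposited gave 41, 70 and 1. Leaving out 1 array gave 4 to 46, 24 to 67 and 0 to 13. For silver nitrate against control each array but control replicate 3 (44) moved the count by over 1.5 times: 46 and 19 without control replicates 1 and 2, 13, 17 and 19 without aged replicates 1 to 3, 5, 12 and 7 without pristine replicates 1 to 3, and 16, 10 and 4 without silver nitrate replicates 1 to 3. Of these calls, lem-4 and ilys-3 remained in each of those 12 fits, col-158 in 11, grl-20 in 10 and grl-23 in 9, while col-84, C04E6.8, T20D3.6 and gst-20 remained in 0.

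Above median brightness, in alternatives chosen after seeing the data, the 185 calls became 250 with values as deposited, 183 after quantile normalisation, 199 with the replicate block, 288 with trend and robust variance and 71 with the 2 groups alone. Of the 185, these held 166, 150, 150, 173 and 65 in that order. Genes lost after quantile normalisation included flp-18 (adjusted p = 0.154), col-159 (0.0881), lpin-1 (0.061), act-5 (0.0561) and the brightest sams-1 probe set (0.0727). Leaving out 1 array gave 39 to 248, with 117 without control replicate 1, 39 without control replicate 2, 123 without pristine replicate 2, and 84 and 42 without silver nitrate replicates 1 and 2. All 185 kept their direction in each of these settings. For the fits that left out arrays or changed only the variance this was fixed in advance. The silver nitrate and control arrays of all 185 did not overlap, so no such fit could reverse a direction. In fits leaving out 1 array, asp-13, ugt-9 and bar-1 remained called in 2 of 12, clec-50, flp-18, tkt-1 and col-159 in 3, nhr-21 in 4 and fmo-2 and clec-258 in 6. The causes of these changes were not tested. Signals at the floor carry no order, and 3 arrays a group limit the precision.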

Other observations

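Gene classes were also read by the letters of their names, after the values were seen and with no test, as the number of genes whose silver nitrate arrays all lay below or all above the control arrays. Among the saposin-like spp genes, which encode small membrane-acting proteins of the gut, 6 of 18 lay wholly below control (33.3%), with a median difference of −0.2, and none was called. Histone genes (his) had 8 of 26 wholly below (30.8%) and a median of −0.19, whereas nuclear pore genes (npp) had 5 of 26 wholly above (19.2%), none below, and a median of 0.15. Solute carriers (slc) split, with 9 of 32 wholly below (28.1%) and 4 wholly above (12.5%). The FMRFamide-like flp genes had 9 of 25 wholly below and 0 above, and 24 of the 25 had a difference under 0. Galectins (lec) had 3 of 12 wholly above and none below, with a median of 0.21. The cytochrome P450, F-box fbxa and chemoreceptor srh classes held 5 of 73, 10 of 171 and 2 of 232 wholly above and 7, 8 and 14 wholly below, so that many large classes lay near or under the shares for all genes, 6.1% above and 8.09% below.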
